A study of Mus musculus with 7 samples.

Results

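Toll-like receptors and Cd14 were examined as 10 named genes, Tlr1 to Tlr9 and Cd14, out of 21631 protein-coding genes on chromosomes 1 to 19 and X. They were chosen by name and not by a measured value, and all 10 were found in the RefSeq gene table. The chromatin state of every 200 bp bin was read inside each gene and within 20 kb of its ends, and this stretch is called the window of the gene. The cells were mouse leukaemia cells of BALB/c background, from bone marrow and named after CEBPA, a transcription factor of granulocyte development, and CSF3R, a cytokine receptor of the same lineage, both of which are mutated in some myeloid leukaemias. Both groups were of these cells, and how the genes were introduced was not stated in the labels used here. One was grown for 48 h with 4 nM GSK-LSD1, an inhibitor of the histone demethylase LSD1, and the other for 48 h with DMSO, the solvent. Each group had 3 immunoprecipitated libraries, 1 for each of H3K4me1, H3K4me3 and H3K27Ac, and an input library carried no treatment label. The authors deposited 1 segmentation of the genome into 6 states, E1 to E6, for each treatment, so the values below have no replicates and were compared as descriptions, without p-values.

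Toll-like receptors are membrane proteins that recognise microbial molecules through leucine-rich repeats and signal through a cytoplasmic TIR domain to the adapters MyD88 and TRIF, and from there to NF-kB and interferon regulatory factors. Those on the cell surface bind bacterial lipids and proteins, whereas those in endosomes bind nucleic acids. CD14 is a lipid-anchored surface protein that hands lipopolysaccharide to TLR4 and is used as a marker of monocytes and macrophages. LSD1 removes methyl groups from lysine 4 of histone H3, which is methylated at promoters and enhancers.

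The states were read by where they lay, since the labels used here do not say which marks define which state. E3 was background, at 73.3% of the genome in DMSO and 70.1% in GSK-LSD1, and E2 was a broad state, at 21.3% and 19.3%. E5 and E6 are called start-type states. Over 21045 RefSeq start positions of protein-coding genes, E5 was enriched 25.1-fold over its share of all bins in DMSO and 16.6-fold in GSK-LSD1. The same enrichment of E6 was 21.2-fold and 14.9-fold. E4 often bordered them and was enriched 2.27-fold at starts in DMSO, where E1 stood at 0.581-fold. Whether a state number means the same combination of marks after both treatments is not known here. The genome-wide share of E6 went from 0.217% to 2.08% and that of E1 from 0.483% to 4.72%. In a bulk culture, a mark present in more cells and a stronger mark in each cell cannot be told apart. Of 7 leukocyte and myeloid genes used to check the label, 3 had a start-type state at their start in DMSO and 6 in GSK-LSD1. Their windows held 0.2 to 11.4 kb of E5 or E6 in DMSO and 4.2 to 31.6 kb in GSK-LSD1. None of 3 B cell and 3 T cell markers had one at the start in either segmentation. Of 3 monocyte and macrophage markers, none had one in DMSO and 1, Adgre1, had one in GSK-LSD1, with Csf1r and Cx3cr1 at 0 kb in both. Gata1 and Klf1 of 3 erythroid markers, Epcam of 3 markers of stroma, endothelium and epithelium, and Flt3 of 3 dendritic cell markers had one in both. The part of any change in cell type make-up in the values below was not tested.

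The start windows of 5 genes, 1 window each, are printed because the state at the start was start-type there in both segmentations (Tlr2, Tlr3, Tlr5 and Tlr6) or in GSK-LSD1 alone (Tlr1). Each runs from 250 bases before to 50 bases after a RefSeq start (GRCm38.p6), 5′ to 3′ along the gene's strand. Capitals mark matches, on either strand, to the ETS word bound by PU.1 (GAGGAAGT), a C/EBP word (TTGCNNAA), an interferon response word, an NF-kB word, an AP-1 word (TGANTCA), a GFI1 word (AAATCAC) and the TATA word (TATAAA).
Tlr1, chr5:64933509-64933808, minus strand: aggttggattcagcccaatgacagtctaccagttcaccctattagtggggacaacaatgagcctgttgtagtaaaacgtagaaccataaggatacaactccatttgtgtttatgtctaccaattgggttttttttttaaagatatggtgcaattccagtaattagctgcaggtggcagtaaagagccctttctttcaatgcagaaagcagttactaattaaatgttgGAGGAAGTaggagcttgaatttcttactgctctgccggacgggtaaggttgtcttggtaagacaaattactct
Tlr6, chr5:64959117-64959416, minus strand: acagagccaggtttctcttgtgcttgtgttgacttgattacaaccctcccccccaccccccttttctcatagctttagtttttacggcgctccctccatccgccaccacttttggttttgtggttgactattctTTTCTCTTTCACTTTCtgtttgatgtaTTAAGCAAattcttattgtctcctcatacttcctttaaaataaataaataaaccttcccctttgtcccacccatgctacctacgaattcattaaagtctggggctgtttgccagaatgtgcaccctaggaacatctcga
Tlr2, chr3:83841559-83841858, minus strand: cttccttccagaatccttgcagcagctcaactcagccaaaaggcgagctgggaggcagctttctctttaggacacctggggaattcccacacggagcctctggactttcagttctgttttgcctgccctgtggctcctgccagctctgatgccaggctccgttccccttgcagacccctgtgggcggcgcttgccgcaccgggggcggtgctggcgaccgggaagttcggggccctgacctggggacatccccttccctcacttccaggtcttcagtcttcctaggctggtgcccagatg
Tlr5, chr1:182954538-182954837, plus strand: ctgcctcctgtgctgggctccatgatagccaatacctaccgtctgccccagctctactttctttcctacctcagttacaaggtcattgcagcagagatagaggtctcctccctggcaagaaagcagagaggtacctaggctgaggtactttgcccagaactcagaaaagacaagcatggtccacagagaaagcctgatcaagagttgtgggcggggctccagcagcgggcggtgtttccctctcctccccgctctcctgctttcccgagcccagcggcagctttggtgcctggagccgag
Tlr3, chr8:45410331-45410630, minus strand: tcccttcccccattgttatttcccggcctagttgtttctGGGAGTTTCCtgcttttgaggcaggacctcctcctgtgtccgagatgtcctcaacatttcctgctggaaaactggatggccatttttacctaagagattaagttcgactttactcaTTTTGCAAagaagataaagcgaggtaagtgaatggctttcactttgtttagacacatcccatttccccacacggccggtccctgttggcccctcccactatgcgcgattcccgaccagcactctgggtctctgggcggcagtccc
The Tlr1 window held the PU.1 word 23 bases before the start, a word present in 3.15% of 21045 start windows of protein-coding genes. The Tlr6 window held overlapping matches to the interferon response word (3.38% of windows) and 1 C/EBP match (10.3%). The Tlr3 window held an NF-kB match (1.46%) and a C/EBP match, and the Tlr2 and Tlr5 windows held none of the 7 words. The other Tlr1 window (start at 64932699), not printed, held none of the words, and the other Tlr6 window (start at 64960048), also not printed, held 3 TATA matches and no C/EBP or interferon response match. The TATA word was present in 12.7% of windows. The Tlr9 window, not printed, held the PU.1 word 10 bases past the start and an AP-1 match (7.04% of windows). Its start was in E4 in both segmentations. The Tlr8 window, not printed either, held C/EBP, GFI1 (2.85% of windows) and TATA matches. These are matches of letters and were not tested as binding sites.

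All 9 RefSeq start windows of these genes (7 genes, with a pair of starts each for Tlr1 and Tlr6) held fewer CpG dinucleotides than the median of 13 over all protein-coding windows. The Tlr2 window had 11, Tlr3 had 10, Tlr5 had 8, and the Tlr6 windows had 5 and 7. The starts in these windows lay in E5 in DMSO. The Tlr9 and Tlr8 windows had 0 and 1, and neither start was in E5 or E6 in either segmentation. Tlr1 had 3 at one start and 9 at the other. Over all protein-coding windows, a start-type state was present in DMSO at 7.06% of starts with 0 to 4 CpGs, 41.6% with 5 to 13, 83.3% with 14 to 25 and 90.7% with 26 to 67. The share gaining one in GSK-LSD1, of windows without one in DMSO, was 3.19% in the first of these classes and 7.68% in the next.

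At the starts themselves, 5 of the 10 genes had a start-type state in both segmentations, 2 gained one and 3 had none in either. Over all 21631 protein-coding genes, 11566 had one in both, 641 gained one and 201 lost one. RefSeq start windows, which give the strand, were matched for 7 genes. For Tlr4, Tlr7 and Cd14 both gene ends were read in place of the start. Tlr1 went from E4 to E5 at one RefSeq start (chr5, 64933558) and from E2 to E5 at the other (64932699). Tlr4 went from E4 to E5 at its lower-coordinate end (chr4, 66827551). So 2 of the 5 genes without a start-type state in DMSO gained one, beside 6.50% of 9864 protein-coding genes without one. Tlr8 went from E3 to E4 at its start, Tlr9 stayed in E4, and both ends of Tlr7 went from E3 to E2. None of the 5 genes with a start-type state in DMSO lost it at the start. Among all protein-coding genes with one in DMSO, 201 lost it and 11566 kept it. Of the 5 RefSeq starts of these genes that were in E5 in DMSO, 4 kept E5 in GSK-LSD1 and 1 (Tlr6, 64959166) turned to E6, beside 51.2% of 10454 E5 starts that became E6 over all protein-coding genes.

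**Figure D1:**
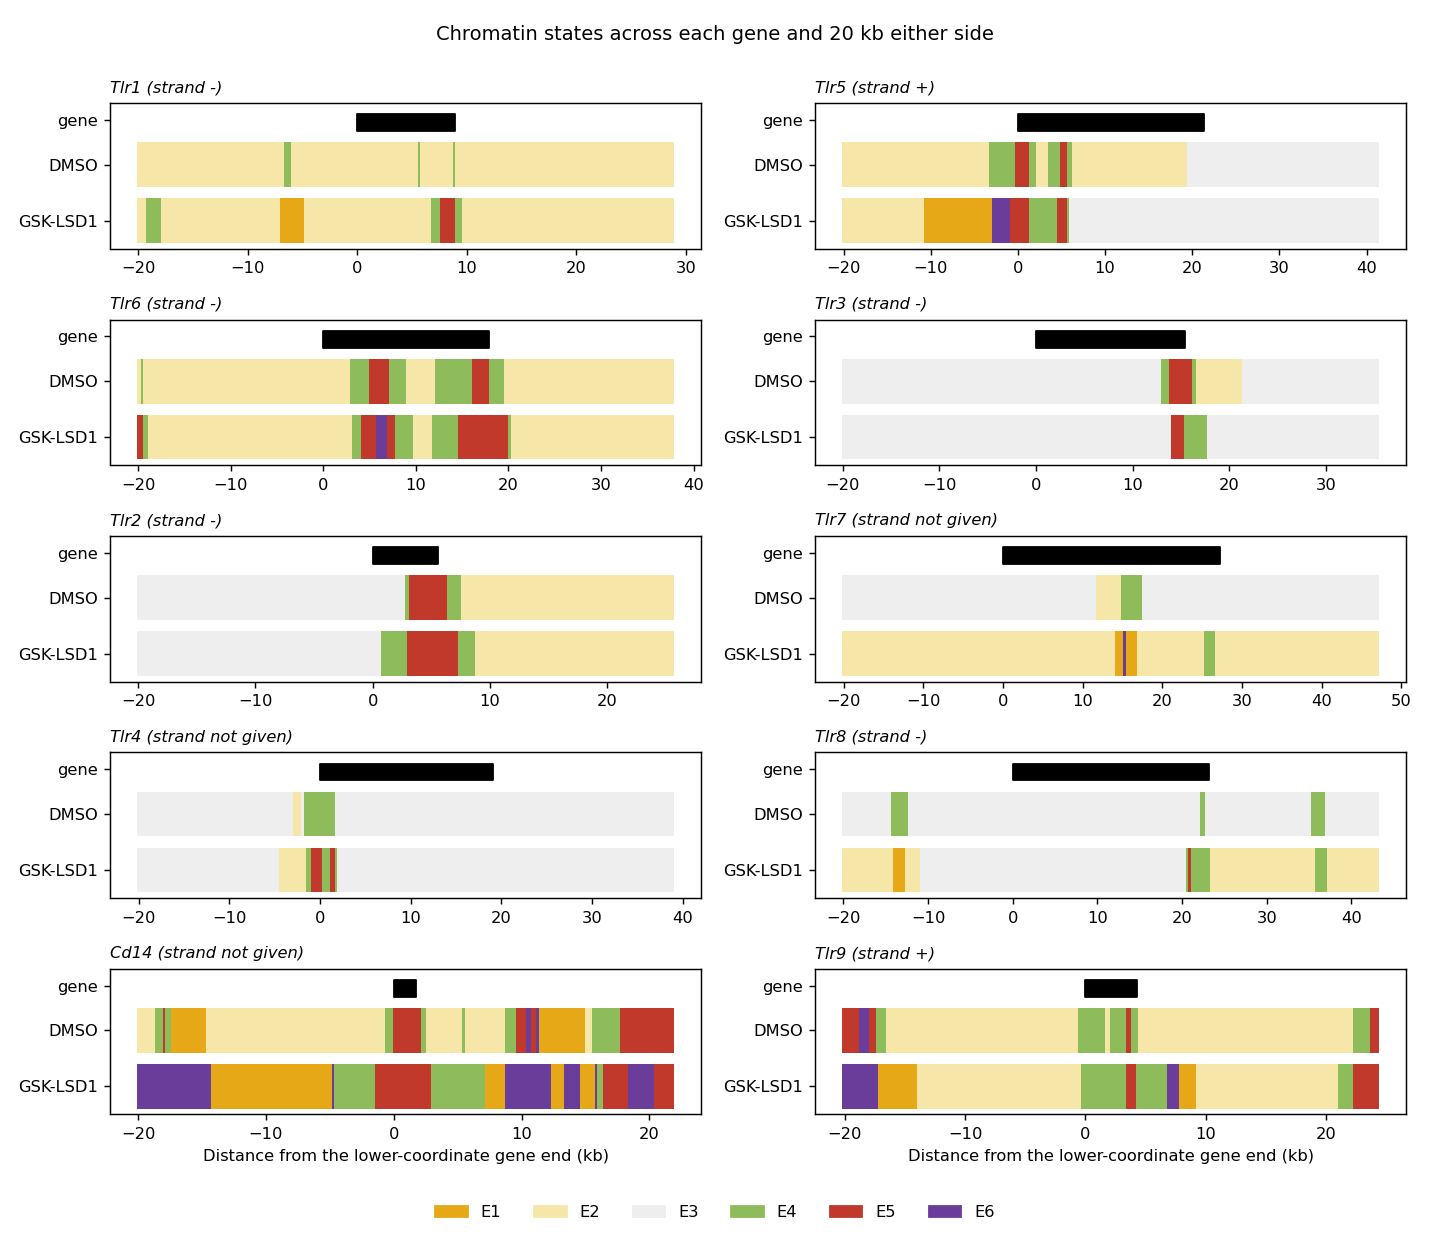
State of each 200 bp bin across the 10 genes and 20 kb either side, against distance from the lower-coordinate gene end in kb, with the gene as a black bar above the DMSO and GSK-LSD1 tracks. E5 (red) is present at Tlr1, Tlr4 and Tlr8 in the GSK-LSD1 track alone, and E3 (pale grey) over Tlr7 in DMSO is E2 (pale yellow) in GSK-LSD1.

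In GSK-LSD1 the windows of 9 genes held more start-type area than in DMSO, and the window of 1, Tlr3, held less. Over all protein-coding genes 66.8% had more and 4.43% had less, counting any difference of 200 bp or more. The median change was 1.6 kb over the 10 genes and 1.4 kb over all genes. A difference of at least 2 kb upward was present at 4 genes (Cd14, Tlr6, Tlr5 and Tlr9), beside 44.9% of all genes. Cd14 had the largest area and Tlr6 the next in both segmentations, Tlr6 tied with Tlr9 at 4 kb in DMSO. Tlr1, Tlr4, Tlr7 and Tlr8 had none in DMSO, and Tlr7 and Tlr8 had the least, 0.4 kb each, in GSK-LSD1.

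**Figure D2:**
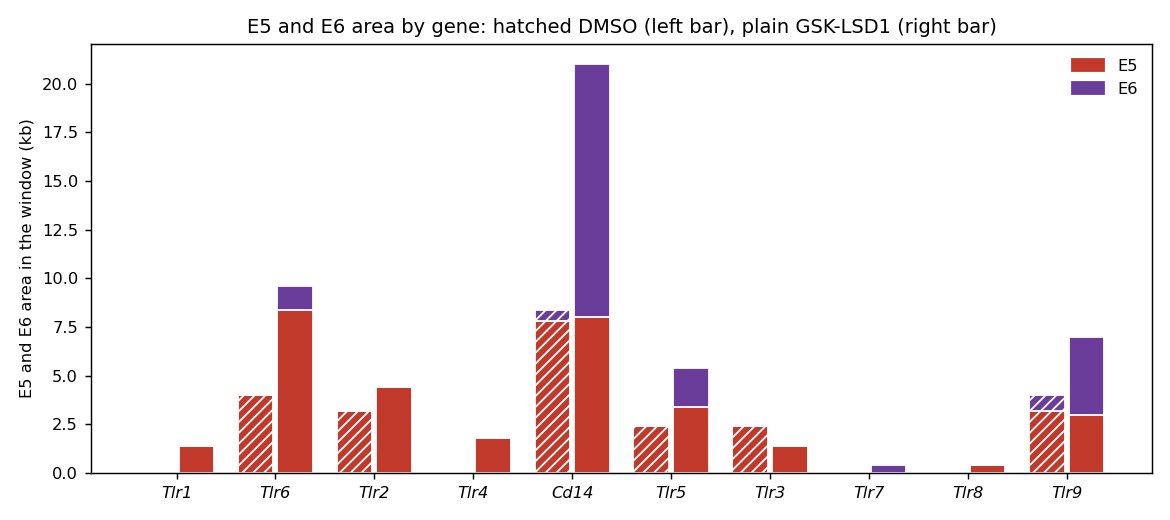
Area of E5 (red) and E6 (purple) in each window in kb, with hatched bars for DMSO and plain bars for GSK-LSD1, 1 segmentation each. Cd14 goes from 8.4 to 21 kb, mostly by E6, and Tlr3 is the gene with less.

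Taken alone, E5 covered more of these windows in GSK-LSD1, unlike its share of the genome. With each bin counted once, the windows held 23 kb of E5 in DMSO and 31.6 kb in GSK-LSD1, a ratio of 1.37, and the genome-wide ratio was 0.774. The largest increase lay in the Tlr6 window, where E5 went from 4 to 8.4 kb. Part of that was an E5 region shared with Fam114a1 and Mir574, 1.8 kb long in DMSO and 5.4 kb long in GSK-LSD1. E5 area was larger at 7 genes, smaller at Tlr3 and Tlr9, and 0 kb in both at Tlr7. Over all protein-coding genes 28.6% had more E5 and 40.9% had less. Of the 115 E5 bins in these windows in DMSO, 67.0% (95% Wilson interval 57.9 to 74.9) were still E5 and 28.7% (21.2 to 37.5) were E6, against 44.4% and 51.3% of E5 bins over the genome. Wilson intervals cover counting error only, and neighbouring bins are not independent. The E5 bins that became E6 lay in the windows of Tlr6 (6 bins), Tlr9 (10) and Cd14 (17). All 10 in the Tlr9 window lay at Twf2, and all 17 in the Cd14 window lay at or near Gm41699, Tmco6, Ndufa2 and Ik, while the E5 region over Cd14 itself stayed E5. At Tlr2, Tlr5 and Tlr3 none did, while all 16 at Tlr2 and all 12 at Tlr5 stayed E5.

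Tlr2, Tlr1 and Tlr6 encode receptors for bacterial lipoproteins, in which TLR2 pairs with TLR1 or TLR6. Tlr1 (chr5:64924680-64933600, minus strand) had no start-type bin in DMSO, where E2 filled 48 of the 49 kb. In GSK-LSD1 a single E5 region of 1.4 kb ran from its outer start into the gene, to 1.36 kb downstream, flanked by E4. A region of E1 of 2.2 kb also appeared past the far end of the gene. Tlr6 (chr5:64953092-64970942, minus strand) is the neighbour of Tlr1 on the same chromosome, and their windows overlap. Tlr6 had 4 kb of E5 in DMSO, and 8.4 kb of E5 and 1.2 kb of E6 in GSK-LSD1. Of this, 0.6 kb of E5 in GSK-LSD1 belonged to the Tlr1 region. A region at the RefSeq starts of Tlr6 was 2.2 kb long in DMSO and 3.6 kb, with the E6 in its middle, in GSK-LSD1. Another lay at the upper end of the gene, where Fam114a1 and the microRNA gene Mir574 also lie (1.8 and 5.4 kb). In GSK-LSD1 it ran from -12.95 to -7.55 kb of the start at 64960048, upstream of it. Leaving out bins nearer to another gene, Tlr6 had 4 and 7 kb of start-type area, a change of 3 kb against 5.6 kb in the full window. E4 in the window went from 9.6 to 6.8 kb. With the Tlr1 and Tlr6 windows merged, start-type area went from 4 to 10.4 kb. Tlr2 (chr3:83836272-83841824, minus strand) had 1 E5 region in each segmentation, 3.2 kb long in DMSO and 4.4 kb long after treatment. Counted along the gene from the start, with upstream positions negative, it reached from -0.99 to 2.21 kb in DMSO and from -1.99 to 2.41 kb in GSK-LSD1. The window of Tlr2 held no E1 or E6 in either.

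Tlr4 and Cd14 encode the signalling receptor and the co-receptor for lipopolysaccharide. Tlr4 (chr4:66827551-66846581) lay in background chromatin, with 55 of 59.2 kb in E3 in DMSO and 52.8 kb in GSK-LSD1. In DMSO the gene had a single block of E4, 3.4 kb long, over its lower-coordinate end (66825801 to 66829200). In GSK-LSD1 the same block was broken into E5 of 1.2 kb (66826601 to 66827800) and of 0.6 kb (66828601 to 66829200), with E4 around them. The change of 1.8 kb came wholly from E4, and start-type area with E4 added was equal in both. E2 beside the block went from 0.8 to 3 kb, and no annotated gene other than Tlr4 lies in the window.

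Cd14 (chr18:36725064-36726815) is a short gene in a gene-dense stretch, and its window changed most in start-type area. E5 covered the whole gene in both segmentations, in a region of 2.2 kb in DMSO (36725001 to 36727200) and 4.4 kb in GSK-LSD1 (36723601 to 36728000). E5 or E6 in the whole window went from 8.4 to 21 kb. That change of 12.6 kb was exceeded at 2.25% of protein-coding genes. Most of it lay beside other genes. With bins nearer to another annotated gene left out, Cd14 had 2.2 and 4.4 kb, a change of 2.2 kb over the 9 kb that remained. The other start-type regions lay at Gm41699 on one side and at Tmco6, Ndufa2, a subunit of respiratory complex I, and Ik on the other. With E5 alone the change was 0.2 kb, since E6 went from 0.6 to 13 kb. E2 went from 22 to 0 kb in the window, E1 from 6.4 to 13.2 kb and E4 from 5.2 to 7.8 kb, so the 42 kb were filled by E1, E4, E5 and E6 in GSK-LSD1. Of the window, 16.7% kept its state number.

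Tlr5 encodes the receptor for bacterial flagellin. The gene (chr1:182954752-182976044, plus strand) had E5 at its start in both segmentations and a second E5 region inside the gene, 0.8 kb long in DMSO and 1.2 kb long after treatment. The region at the start was 1.6 kb long in DMSO and 4.2 kb long after treatment. It kept its downstream border, 1.21 kb past the start, and its upstream border moved from -0.39 to -2.99 kb. The outer 2 kb of the longer region were E6. Beyond them lay 7.8 kb of E1 in GSK-LSD1, where DMSO had E2 and a little E4. Downstream the chromatin went the other way. E2 reached to 19.45 kb past the gene's lower-coordinate end in DMSO, and in GSK-LSD1 all marked states ended at 5.85 kb, so that E3 went from 22 to 35.6 kb in the window. A larger increase in E3 was present at 9.67% of protein-coding genes.

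Tlr3 encodes the endosomal receptor for double-stranded RNA and is the exception in start-type area. The gene (chr8:45395665-45411075, minus strand) had E5 at its start in both segmentations, 2.4 kb long in DMSO and 1.4 kb long after treatment. Of the 12 E5 bins in DMSO, 7 stayed E5, 4 became E4 and 1 became E3. Its E2, 4.8 kb upstream of the start in DMSO, was 0 kb in GSK-LSD1, while E4 went from 1.2 to 2.4 kb. In start-type area 99.1% of protein-coding genes had a higher change than Tlr3. With E4 counted as well the change was 0.2 kb upward. At the gene end beyond the RefSeq start (45411075) the state went from E5 to E4, so with gene ends in place of starts Tlr3 counts as a loss.

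Tlr7 and Tlr8 encode endosomal receptors for single-stranded RNA and lie side by side on chromosome X. Both had little start-type chromatin and a large change in the broad state E2. Tlr7 (chrX:167303380-167330574) had 61.6 of 67.4 kb in E3 in DMSO and 0 kb in GSK-LSD1, where E2 covered 63.2 kb against 3.2 kb before. That increase in E2, 60 kb, was exceeded at 1.15% of protein-coding genes. A block of E4 inside Tlr7 (2.6 kb in DMSO, 167318201 to 167320800) was E1, E6 and E2 in GSK-LSD1, with 0.4 kb of E6, and a new E4 region of 1.4 kb lay near the upper end of the gene. Tlr8 (chrX:167241123-167264329, minus strand) had 0 kb of E2 in DMSO and 26.4 kb in GSK-LSD1. E3 went from 59.2 to 31.4 kb, and 31.4 kb over the gene body and beyond its far end remained E3. A new E5 region of 0.4 kb, in E3 in DMSO, lay 2.13 to 2.53 kb downstream of the start. E2 covered 1.3% of chromosome X in DMSO and 3.24% in GSK-LSD1, a ratio of 2.49 beside 0.908 over the genome. The part of this chromosome-wide difference in the values at Tlr7 and Tlr8 was not tested. E2 area was larger at 3 of the 10 genes (Tlr7, Tlr8 and Tlr4) and smaller at 7, beside 22.2% and 55.4% of all protein-coding genes.

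Tlr9 encodes the endosomal receptor for unmethylated CpG DNA. The gene (chr9:106222598-106226876, plus strand) lay in E4 at its start in both segmentations. Its own E5 region, near the far end of the gene and 3.4 kb past the start, was 0.4 kb long in DMSO and 0.8 kb long after treatment. E5 or E6 in the whole window went from 4 to 7 kb. Most of this area lay at Twf2, an actin-binding protein gene, and at Alas1, the first enzyme of haem synthesis. In start-type area the flank with Twf2 went from 2.8 to 3 kb and the flank with Alas1 from 0.8 to 3.2 kb. Leaving out bins nearer to other genes, the values were 0.4 and 1.6 kb. With E5 alone the window went from 3.2 to 3 kb. A new E6 region of 1 kb, in E2 in DMSO, lay 6.8 to 7.8 kb past the start, between Tlr9 and Alas1, and E1 of 1.4 kb followed it.

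**Figure D3:**
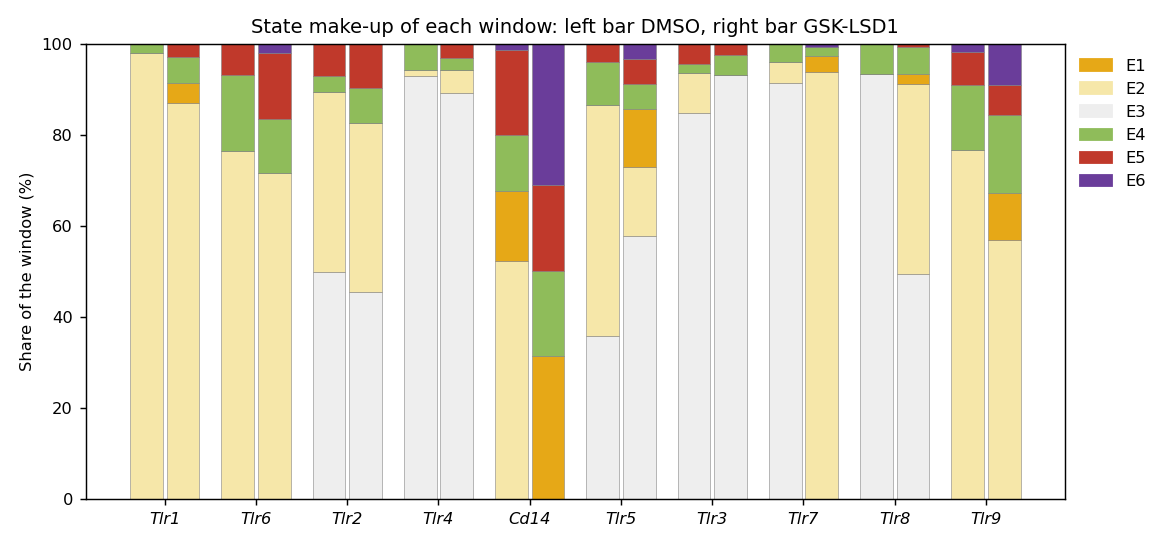
Share of each window in each state in percent, with DMSO as the left and GSK-LSD1 as the right bar of each pair. E2 replaces E3 at Tlr7 and in part at Tlr8, and E3 replaces E2 in part at Tlr5. The Cd14 window holds no E2 in GSK-LSD1 and no E3 in either segmentation.

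The states that spread over the genome after treatment reached 7 of the 10 windows. In GSK-LSD1, 7 genes had more E1 or E6 than in DMSO and none had less, while Tlr2, Tlr3 and Tlr4 had 0 kb in both. Over all protein-coding genes 60.2% had more and 0.929% had less. The largest values were at Cd14 (7 and 26.2 kb), Tlr5 (0 and 9.8 kb) and Tlr9 (0.8 and 8.6 kb). Leaving out bins nearer to another gene, the change was upward at 6 genes, a count without a share of all genes beside it. It was 0 kb at Cd14 and 0.8 kb at Tlr9, and stayed at 9.8 kb at Tlr5. At Tlr5 all of it lay upstream of the gene, and inside the genes E1 or E6 was present only at Tlr6 (1.2 kb) and Tlr7 (2.8 kb), both in GSK-LSD1. Counting E1, E4, E5 and E6 together, 9 genes had more in GSK-LSD1 and Tlr4 had 3.4 kb in both, beside 69.0% with more and 8.61% with less over all genes. When E2 was counted too, the direction turned at Tlr3 and Tlr5, to 4 genes with more and 2 with less, beside 30.7% and 21.4% of all protein-coding genes.

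Of 22 start-type regions that touched the windows in GSK-LSD1, 9 overlapped none in DMSO, beside 36.2% of 30107 such regions over the genome. None of the 13 in DMSO was without an overlap in GSK-LSD1. The 9 were 1 at Tlr1, 2 at Tlr4, 1 each at Tlr7, Tlr8 and Tlr9, and 3 in the window of Cd14 but outside the gene. All were short, from 0.2 to 1.4 kb. In the windows together, 31.9% of 204 E4 bins in DMSO became E5 (Wilson interval 25.9 to 38.5) and 11.3% became E6 (7.63 to 16.3), against 18.9% and 19.9% over the genome. Of the 65 bins that became E5, 24 lay in the Tlr6 window and 12 in that of Cd14. Here too the intervals cover counting error only and neighbouring bins are not independent, so the difference from the genome was not tested.

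**Figure D4:**
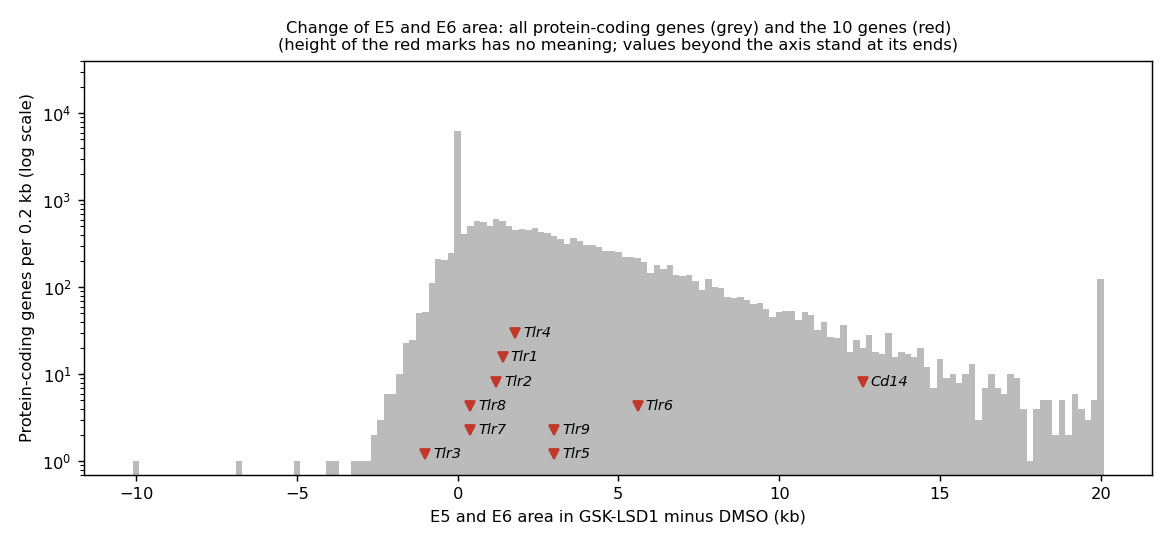
Number of protein-coding genes (log axis, per 0.2 kb) by change of E5 and E6 area in kb, GSK-LSD1 minus DMSO, with the 10 genes as red marks whose height has no meaning. Of the 10, 8 lie between 0.4 and 5.6 kb, within the main body of all genes, with Tlr3 at -1 kb and Cd14 at 12.6 kb.

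Likeness of state make-up was measured as the sum of absolute differences over 12 shares of the window, 6 states in each of 2 segmentations, so it rests on 2 conditions and no replicate. Outside its own neighbourhood, Cd14 was most like Elane, the neutrophil elastase gene, at 0.393, followed by Six4 at 0.407 and Rcsd1 at 0.485, where the median distance to all genes was 2.48. Tlr6 was most like Med4, a Mediator subunit gene, at 0.0823, Cebpa at 0.114 and Irf7 at 0.119, with a median of 1.85. Among the 10 genes the closest pair was Tlr3 and Tlr4, at 0.344, both of them mostly E3 apart from 1 block at the start. The neighbours Tlr7 and Tlr8 stood 1.18 apart, although their windows share bins.

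Genes that work with or downstream of these receptors were read from 8 lists of 70 genes. In GSK-LSD1, 64 of them had more start-type area, none had less and 6 were equal, beside the 66.8% of all genes with more. The median change over the 70 was 3.3 kb, beside 1.4 kb over all genes. In DMSO, 9864 of 21631 protein-coding genes had no start-type state at the start. No adapter, kinase, ubiquitin ligase or downstream transcription factor lacked one. It was absent at all 3 other Toll-like receptors, 5 of 10 cytokine genes and 4 of 9 co-receptors. The same held for 2 of 8 inhibitors and 2 of 10 other pattern recognition receptors. Genes alike in this were not compared, so the excess over 66.8% was not tested. Among other mouse Toll-like receptors, Tlr12 went from 3.2 to 6.4 kb and gained a start-type state at its start, Tlr13 went from 1.2 to 2 kb, and Tlr11 had 0 kb in both. Co-receptors and chaperones had more at 8 of 9, with a median change of 2.2 kb. Nrros, a leucine-rich repeat relative of the receptors, went from 14.2 to 22.4 kb, and Unc93b1, which carries endosomal receptors to their compartment, from 2.8 to 8.4 kb. Ly96, which encodes the MD-2 partner of TLR4, was chosen after its values were seen and went from 2.2 to 4.4 kb. Cd36, a scavenger receptor, had 0 kb in both.

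All 6 adapters had more start-type area, with the highest median change of the lists, 7.1 kb. The counts of this paragraph stand beside 66.8% of all protein-coding genes with more and a median change of 1.4 kb. They rest on E5 and E6 together, and with E5 alone 1 adapter had more and 5 had less. Pik3ap1, an adapter to phosphoinositide 3-kinase, went from 15.6 to 28.4 kb and Myd88, the adapter shared by most of these receptors, from 14.8 to 25.2 kb. Of 15 kinases and ubiquitin ligases, 14 had more and Tab3 had 2.8 kb in both, with a median change of 3.2 kb. Irak2, a kinase of the Myddosome complex, went from 20.2 to 55.2 kb and Tab2 from 7.4 to 13 kb, tied in its change of 5.6 kb with the IkB kinase gene Ikbkb (8.2 to 13.8 kb). All 8 inhibitors had more, with a median of 4.4 kb. Among them Irak3, which encodes the inhibitory kinase IRAK-M, went from 13.2 to 26.6 kb, Il1rl1 from 21.6 to 32.2 kb, and Sigirr from 7.8 to 14.4 kb with a start-type state gained at its start. All 9 downstream transcription factors had more, with a median of 3.4 kb, including the NF-kB gene Nfkb1 (15 to 34.4 kb) and Fos (9.8 to 18.6 kb).

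Of 10 cytokine and inflammatory target genes, 8 had more, none had less, and Il1b and Il12b had 0 kb in both. Their median change was 4.3 kb. Of all protein-coding genes, 66.8% had more and 4.43% had less, with a median change of 1.4 kb. Tnf went from 12.6 to 27.4 kb and the neutrophil chemokine gene Cxcl2 from 3.2 to 14 kb. The neighbouring chemokine genes Ccl3 and Ccl4 each went from 0.4 to 6.6 kb, in overlapping windows, and both gained a start-type state at the start. Of 10 other pattern recognition receptor genes, 9 had more and Clec7a had 0 kb in both, with a median of 4.3 kb. Sting1, an adapter of cytosolic DNA sensing, went from 15.2 to 28.8 kb and the DNA sensor gene Aim2 from 11.2 to 22.2 kb, while Nlrp3, an inflammasome gene, went from 1.4 to 3.8 kb and gained a start-type state at its start. The receptors themselves thus had a smaller median change, 1.6 kb, than 7 of the 8 lists, a difference that was not tested. They also began lower, with a median of 2.4 kb in DMSO against 3.6 kb over all protein-coding genes. All these values are of whole windows, which are longer for longer genes and take in neighbouring genes. Bins nearer to another gene were not left out for the lists, so the part of neighbours in their values is not known. With E5 alone as the start-type state the direction of the lists turned: genes with less outnumbered genes with more in 6 of the 8, for example 5 against 1 among the adapters. Over all protein-coding genes it turned too, to 28.6% with more and 40.9% with less.

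**Figure D5:**
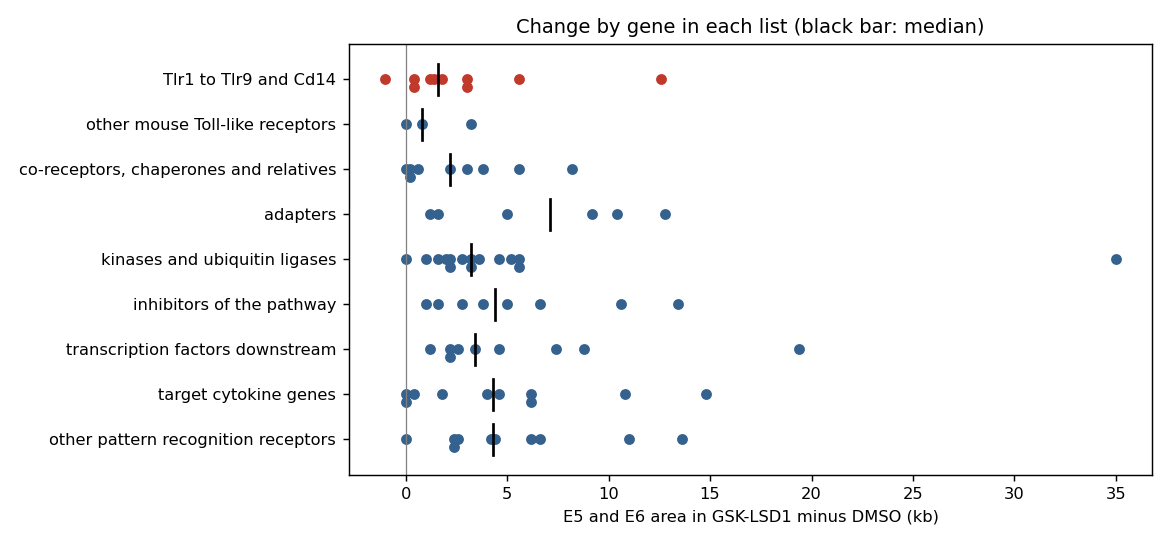
Change of E5 and E6 area in kb, GSK-LSD1 minus DMSO, with 1 point for each gene of the 10 (red) and of each pathway list (blue) and a black bar at the median. The adapters have the highest median, 7.1 kb, and Irak2 is the single point at 35 kb.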

How the data were processed

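Reads were aligned with Bowtie to mm10 (GRCm38), per the submitters' processing notes. The authors deposited a segmentation for each treatment, whose segments are labelled with states E1 to E6. The unit is a label and not a score or count, so depth is unknown. The tool that combined the 3 marks and its use of input are details not given in the sources used here. Such states are thresholded calls, which depend on library depth and quality.

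Segments (136061 in DMSO, 162731 in GSK-LSD1) were expanded to 200 bp bins with Python 3.11.15 and numpy 2.4.6. A window took every bin touched by the gene and its 20 kb flanks. Genes and start windows came from RefSeq (GRCm38.p6). With 1 segmentation per treatment, a call means a difference of at least 200 bp, and 2 kb for the stricter call. From each pathway list the text names the 2 largest increases (with any tie), the largest decrease and every gene gaining or losing a start-type state; the list genes that were equal in both, and Ly96, were named after their values were seen. The counting of window areas was checked on simulated data: gains of 2000 and 4000 bp planted in 200 of 21631 genes all came back. The gains were planted in the DMSO segmentation without noise. The check therefore cannot show whether a difference between the 2 segmentations is reliable. The genes and lists were chosen with earlier results of these data known. All list symbols matched. Alternatives covered window size, the states counted, short runs, boundary shifts, overlapping windows and the start.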

Additional observations from a re-analysis of the deposited data

How the results depend on the processing

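No paired analysis was possible because each treatment has 1 segmentation, made from 3 libraries of different marks. Leaving out a library was not possible either, since a segmentation combines all 3 marks.

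Start-type area was larger in GSK-LSD1 at 7 to 9 of the 10 genes under the alternatives run, including 7 of 8 merged windows. For merged windows no share of all genes is given here, nor for leaving out bins nearer to another gene. The share of all protein-coding genes with more moved with the setting. It was 28.6% with E5 alone (7 of the 10 genes), 51.6% inside gene bodies (8) and 54.9% with E4 added (7). With 5 kb flanks it was 60.4% (9 of the 10 genes), and with 50 kb flanks 73.8% (9). With E5 alone, 2 genes had less (40.9% of all genes), and Tlr9 turned to -0.2 kb. With E4 added to E5 and E6, Tlr3 turned to 0.2 kb and Tlr7 to -0.8 kb. E1 or E6 area was larger at 2 genes inside gene bodies (46.4% of all genes), against 7 in the full windows (60.2%). With E2 counted as marked, 4 genes had more and 2 less (30.7% and 21.4% of all genes), and Tlr3 and Tlr5 turned to -4.6 and -13.6 kb. Start-type gains numbered 2 under each start setting, and 1 gene lost the state when either gene end was read. Shares of all genes under the other start settings are not given here.

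In the pathway lists E5 alone, with 28.6% of all genes higher and 40.9% lower, gave 1 adapter with more and 5 with less, 2 and 6 among co-receptors, 3 and 11 among kinases, 1 and 6 among inhibitors, 5 and 4 among transcription factors, 3 and 5 among cytokine genes, and 4 and 5 among other pattern recognition receptors. With 50 kb flanks (73.8% of all genes with more, 3.71% with less) 1 co-receptor had less. Of the other Toll-like receptors 1 had more and 1 had less with these flanks. With 5 kb flanks (60.4% of all genes with more, 4.93% with less) 1 of the other Toll-like receptors had more. The cause was not tested. Leaving out bins nearer to another gene was chosen after seeing the data.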
